A study of Capra hircus with 6 samples.

Results

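Large intergenic noncoding RNAs (lincRNAs) that were abundant in the skin of goat fetuses were described one by one. They were taken from the lncRNA table as the transcripts of the intergenic class whose mean FPKM over all libraries, as deposited by the authors, was at least 3. The lncRNAs with a quantitative PCR measurement, 6 in all, were left out. TCONS_00135366, with a mean of 3.12 FPKM, was the only lincRNA at the threshold that this removed. This gave 117 abundant lincRNAs out of 999 lincRNAs and 1336 lncRNAs. FPKM is the number of fragments assigned to a transcript, scaled by the length of the transcript and by the size of the library, and levels of different transcripts were compared on this scale only. Because they were chosen by the mean FPKM of these same libraries, their high level is a description and was not tested.

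The libraries came from fetuses taken at day 100 of gestation from 2 breeds of domestic goat, with 1 library for each fetus. The Youzhou dark goat, which has dark skin and mostly a white coat, gave dark skin replicates 1, 2 and 3, and the Yudong white goat, which is white in skin and coat, gave white skin replicates 4, 5 and 6. No animal was treated, and each breed was represented by the fetuses of 3 ewes. Breed and skin color coincide in this design and cannot be told apart, and the labels do not say whether dorsal or ventral skin was used for a given library. The total FPKM of mRNA transcripts was between 506548 and 585344, and since no read counts were used here, the number of reads behind each value is unknown.

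A lincRNA is transcribed from its own stretch of the genome between protein-coding genes, and is often spliced and polyadenylated like an mRNA, but it is not translated into a known protein. Some lincRNAs act in the nucleus on chromatin or on the transcription of nearby genes, others act in the cytoplasm on mRNAs or microRNAs, and for most of them no function is known. Intergenic lncRNAs are typically expressed at lower levels and in fewer cell types than mRNAs. Fetal skin is a mixture of epidermal keratinocytes, melanocytes, dermal fibroblasts, vessels, nerves and, where it was not trimmed away, underlying muscle and fat.

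The abundant lincRNAs were few but carried most of the intergenic signal. They held between 64.6% (white skin replicate 6) and 71.7% (dark skin replicate 3) of the summed lincRNA FPKM in a library. Their own sum was between 1615 and 1996 FPKM, or between 0.316% and 0.372% of the summed mRNA FPKM. The median of their mean levels was 5.62 FPKM, against 0.744 FPKM for the other 882 lincRNAs and 2.39 FPKM for the 27947 mRNA transcripts. The distribution had a long tail. A mean of 3 to 5 FPKM was found for 48 of them, 5 to 10 FPKM for 37, 10 to 30 FPKM for 22 and at least 30 FPKM for 10. The 10 highest in a given library, which need not be the 10 with the highest mean, held between 54.4% and 64.7% of the sum of all 117 there.

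**Figure D1:**
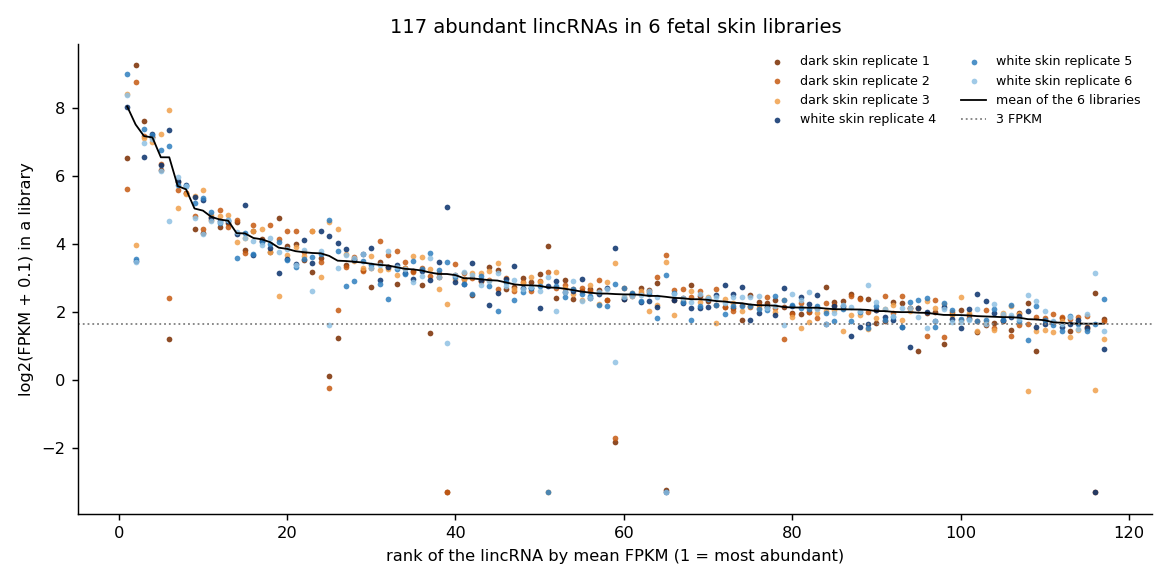
Level of each of the 117 abundant lincRNAs on the log2(FPKM + 0.1) scale (y axis) against its rank by mean FPKM (x axis). Each colored point is 1 library, the black line is the mean of the 6 libraries, and the dotted line marks 3 FPKM. Most points lie close to the line, and a small number of transcripts have libraries far below it, among them 3 listed at 0 in at least 1 library.

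Most of the abundant lincRNAs were abundant in each library and not only on average. Of the 117, 81 were at 3 FPKM or more in all 6 libraries, and between 102 and 109 were at this level in any single library. TCONS_00053729, TCONS_00100755 and TCONS_00111296 were listed at 0 in at least 1 library. In files of this kind a 0 can be a failed estimate, as matched transcripts of the dermal collagen genes COL1A2 and COL3A1 were listed at 0 in all 6 libraries. At the threshold, the 3 transcripts just inside were TCONS_00025228 (3.03 FPKM), TCONS_00111296 (3.03 FPKM) and TCONS_00000706 (3.03 FPKM). The 3 just outside were TCONS_00105411 (2.99 FPKM), TCONS_00079231 (2.96 FPKM) and TCONS_00187540 (2.94 FPKM).

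The abundant lincRNAs lay on 27 of the chromosomes of the authors' goat genome and on 18 unplaced scaffolds. Chromosome 7 held 11 of them, chromosome 2 held 8 and chromosomes 3 and 11 held 7 each. Unplaced scaffolds held 21 of the 117 (17.9%), against 48 of the 882 other lincRNAs (5.44%). The minus strand held 70 (59.8%), against 53.3% of the other lincRNAs, and all of the 10 most abundant were on the minus strand. These shares were not tested. The table gives the chromosome and strand of a transcript, and start and end positions and sequences were not used here.

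The most abundant lincRNA was TCONS_00095183 on chromosome 2. Its level was 91.2, 48.3 and 338 FPKM in dark skin replicates 1, 2 and 3, and 259, 511 and 332 FPKM in white skin replicates 4, 5 and 6. It was low in dark skin replicates 1 and 2, whereas dark skin replicate 3 lay within the range of white skin. Its mean of 263 FPKM was exceeded by 223 of the 27947 mRNA transcripts. It was the first of all lincRNAs in dark skin replicate 3 and in each white skin library, where it held between 9.97% and 18.4% of the summed lincRNA FPKM.

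In the other 2 libraries a different transcript came first. TCONS_00100981, also on chromosome 2, was at 609 and 434 FPKM in dark skin replicates 1 and 2, at 15.3 FPKM in dark skin replicate 3, and at 11.1, 11.6 and 10.9 FPKM in white skin. It held 21.7% and 16.3% of the summed lincRNA FPKM in dark skin replicates 1 and 2, and between 0.420% and 0.559% in the other libraries. The 2 libraries in which it was high were the same ones in which TCONS_00095183 was low. The lowest dark skin value lay above the highest white skin value, but the distance between dark skin replicate 3 and white skin was small beside that within dark skin.

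The next transcripts differed in how even they were. TCONS_00105219 on chromosome 20 was at 197, 145 and 137 FPKM in dark skin and at 93.1, 166 and 124 FPKM in white skin. TCONS_00041573 on chromosome 13 was nearly level in all libraries, at 141, 141 and 127 FPKM in dark skin and at 148, 146 and 135 FPKM in white skin. TCONS_00000187 on an unplaced scaffold was at 72.1, 81.0 and 149 FPKM in dark skin and at 80.1, 107 and 70.4 FPKM in white skin. In each of these 3 the breeds overlapped.

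TCONS_00155569 on chromosome 3 had the largest CV within a breed among the 10, at 2.20, 5.15 and 245 FPKM in dark skin and at 164, 118 and 25.5 FPKM in white skin. TCONS_00042988 on chromosome 13 was at 56.2, 48.1 and 33.3 FPKM in dark skin and at 57.7, 53.1 and 62.4 FPKM in white skin. TCONS_00218683 on the X chromosome was at 45.2, 44.6 and 43.8 FPKM in dark skin and at 53.0, 52.2 and 51.4 FPKM in white skin, so that the breeds were separated by more than their narrow spread. TCONS_00069386 and TCONS_00000143 ended the 10, with means of 32.7 and 31.3 FPKM, and both overlapped between the breeds.

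**Figure D2:**
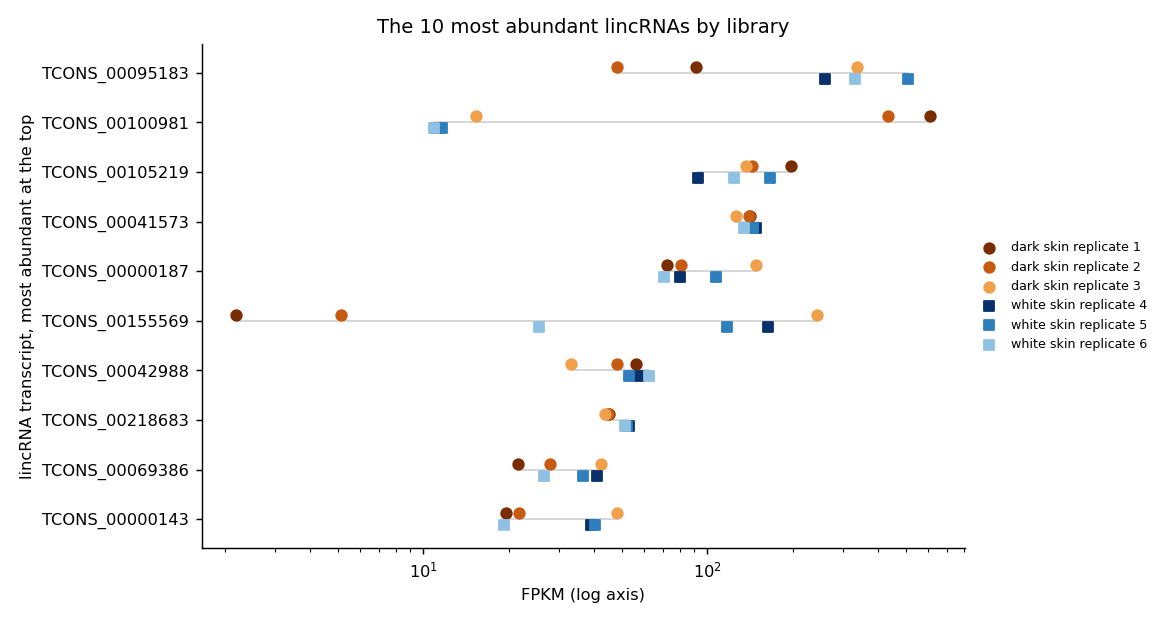
FPKM (x axis, log axis) of the 10 most abundant lincRNAs (y axis) in each library, with circles for dark skin and squares for white skin. TCONS_00100981 spans from 10.9 to 609 FPKM and TCONS_00155569 from 2.20 to 245 FPKM, whereas the 6 values of TCONS_00041573 lie between 127 and 148 FPKM.

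The spread between fetuses of a breed was given as the coefficient of variation (CV, the SD divided by the mean), averaged over both breeds. Its median was 18.0% over the abundant lincRNAs, 26.2% over 311 lincRNAs with a mean of 1 to 3 FPKM, and 43.8% over 878 other lincRNAs with a mean of at least 0.1 FPKM. A CV under 20% was found for 68 of the 117 and a CV over 50% for 10. For 38 of them the highest library was under 1.5 times the lowest. The median CV was 16.9% in dark skin and 15.96% in white skin. These medians are descriptions, because the level chose the transcripts.

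The 5 steadiest transcripts were TCONS_00218683, TCONS_00212287, TCONS_00024373, TCONS_00130559 and TCONS_00041573, with a CV of 1.51%, 3.50%, 4.37%, 5.14% and 5.47% respectively. TCONS_00212287 on chromosome 9 was at 5.47, 5.43 and 5.74 FPKM in dark skin and at 5.65, 5.81 and 5.38 FPKM in white skin. On the log2(FPKM + 0.1) scale its difference between dark and white skin was -0.02, with a 95% interval half-width of 0.32. This width is from limma, which moves the variance of each transcript towards that of others of like level. TCONS_00024373 was at 6.22, 6.01 and 6.75 FPKM in dark skin and at 5.20, 5.41 and 5.15 FPKM in white skin. TCONS_00130559 was at 7.88, 7.19 and 7.07 FPKM in dark skin and at 6.37, 5.84 and 6.21 FPKM in white skin. In the last 2 transcripts, the breeds did not overlap, though their means differed by a factor of only 1.20 in both.

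Dark and white skin were compared to ask which abundant lincRNAs go with the skin color of the breed. No abundant lincRNA passed the test, and the estimated differences were mostly small. The difference of the mean log2(FPKM + 0.1), dark minus white skin, was tested with limma over all 1332 lncRNA transcripts with a mean of at least 0.1 FPKM, and all 117 abundant lincRNAs were among them. With Benjamini-Hochberg adjustment, 0 of the 117 and 0 of the 1332 (0%) had an adjusted p under 0.05, and the smallest adjusted p of an abundant lincRNA was 0.292. An unadjusted p under 0.05 was found for 15 of the 117 (12.8%), with 8 higher and 7 lower in dark skin, against 117 of all 1332 (8.78%). Without the trend in limma these shares were 3.42% and 8.41%, in the opposite order. The count also moved with single libraries, to 6 (5.13%, against 6.31% of all) without dark skin replicate 1, to 7 (5.98%, against 5.63%) without white skin replicate 4 and to 24 (20.5%, against 11.3%) without dark skin replicate 3. In bulk skin, fewer cells of a type and less RNA per cell cannot be told apart.

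The size of the differences was narrowly bounded for many transcripts. The median difference was 0.01 over the abundant lincRNAs, with quartiles of -0.25 and 0.23, and -0.11 over all lncRNA transcripts tested. It was above 0 for 61 and below 0 for 56, under 0.5 in size for 90 and at least 1 for 8. The 95% interval lay within a log2 difference of -1 to 1 for 81 of the 117. The median standard error was 0.22 for the abundant lincRNAs and 0.53 for the other lincRNAs tested. The median log2(FPKM + 0.1) of a library itself was 0.09 lower in dark than in white skin over lncRNA transcripts and 0.04 lower over mRNA transcripts.

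**Figure D3:**
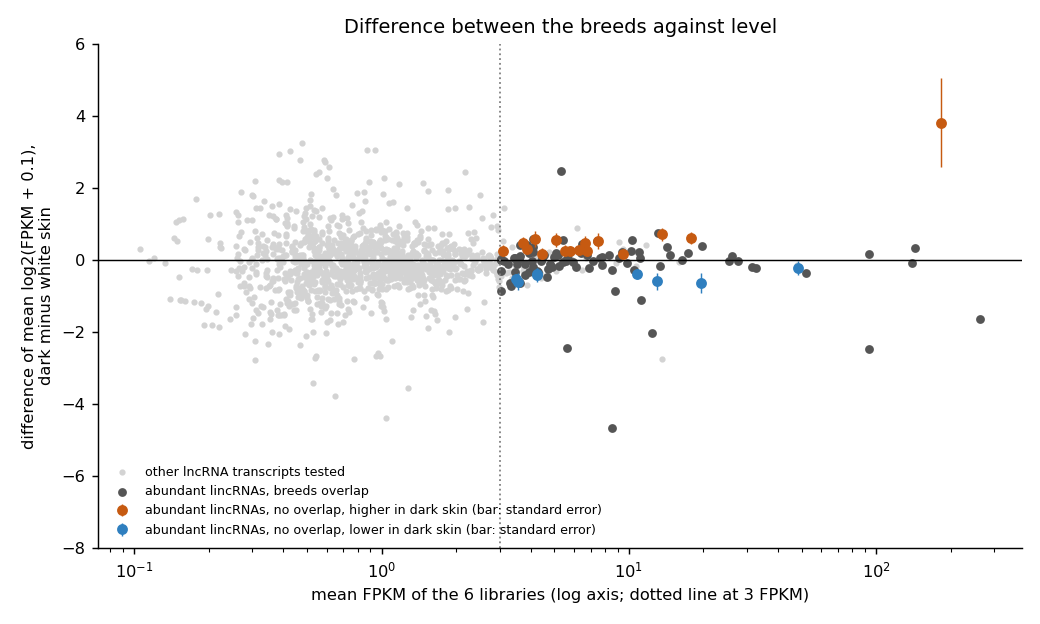
Difference of the mean log2(FPKM + 0.1) between dark and white skin (y axis) against the mean FPKM (x axis, log axis) for the 1332 lncRNA transcripts tested. Orange and blue points are the 16 and 8 abundant lincRNAs whose breeds did not overlap, with bars of 1 standard error from limma, dark grey points are the other abundant lincRNAs, and light grey points are all other lncRNAs. TCONS_00100981, at a difference of 3.82, stands apart from the rest at the upper right.

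For 24 of the 117 abundant lincRNAs (20.5%) all values of one breed lay above all values of the other, against 15.9% of all lncRNA transcripts tested. Of these, 16 were higher in dark skin (13.7%, against 6.08% of all) and 8 were lower (6.84%, against 9.83% of all). A set of 3 of the 24 had a mean under 3 FPKM in one breed, so that the other breed carried them over the threshold. These were TCONS_00183107 and TCONS_00097307, both lower in dark skin, and TCONS_00000197, higher in dark skin. Their direction is tied to how they were chosen. With each library centred on its lncRNA median the count was 30 (23 higher, 7 lower), or 25.6% against 18.5% of all. After quantile normalization it was 19 (11 higher, 8 lower), and the share of 16.2% was then below the 17.5% of all transcripts. Without dark skin replicate 3 the count was 47 (40.2%, against 29.7% of all), without white skin replicate 6 it was 39 (33.3%, against 24.7%) and without dark skin replicate 2 it was 37 (31.6%, against 27.3%). Without white skin replicate 5 the share of 29.9% was slightly below the 30.3% of all transcripts.

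TCONS_00100981 had the largest difference among those higher in dark skin. Its mean was 353 ± 305 FPKM (SD, n = 3) for dark skin and 11.2 ± 0.364 FPKM (SD, n = 3) for white skin, and the log2 difference was 3.82 (standard error 1.23, adjusted p = 0.460 from limma). The difference rested on dark skin replicates 1 and 2, since dark skin replicate 3 was at 15.3 FPKM. Without dark skin replicate 3 the log2 difference was 5.50 and the adjusted p from limma was 0.000273, the only call that any abundant lincRNA reached under the alternatives tried. Without each other library in turn, it was between 2.85 and 3.84, with an adjusted p from limma between 0.479 and 0.751.

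The transcript with the smallest p was TCONS_00158584 on chromosome 3. It was at 15.9, 20.5 and 14.7 FPKM in dark skin and at 10.5, 9.92 and 10.3 FPKM in white skin. All 3 dark skin libraries were above the narrow range of white skin, and the means differed 1.66-fold. The log2 difference was 0.71 with a standard error of 0.17, and the adjusted p from limma was 0.292 (unadjusted 0.00351).

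TCONS_00083577 on chromosome 19 was next, at 20.7, 23.2 and 20.8 FPKM in dark skin and at 12.7, 12.9 and 16.9 FPKM in white skin. The groups did not overlap, and the log2 difference was 0.61 (standard error 0.18, adjusted p = 0.440 from limma). TCONS_00215399 on the X chromosome was at 6.55, 4.68 and 3.92 FPKM in dark skin and at 3.001, 3.81 and 3.01 FPKM in white skin. Its lowest dark skin value was only just above the highest of white skin, and its log2 difference was 0.59, or 0.39 without dark skin replicate 1.

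The remaining transcripts of this direction with the largest differences were TCONS_00109487, TCONS_00002017, TCONS_00082484 and TCONS_00110114, with dark skin means that were 1.46-fold, 1.43-fold, 1.38-fold and 1.41-fold those of white skin. TCONS_00109487 was at 6.81, 5.26 and 5.93 FPKM in dark skin and at 4.23, 3.29 and 4.81 FPKM in white skin. TCONS_00110114 was at 3.88, 5.01 and 4.18 FPKM in dark skin and at 3.20, 2.81 and 3.23 FPKM in white skin. The adjusted p from limma was 0.515 for both and 0.530 for the other 2. Without white skin replicate 4, the log2 difference went from 0.53 to 0.32 for TCONS_00002017 and from 0.48 to 0.29 for TCONS_00082484. The remaining 8 of the 16 had log2 differences between 0.17 and 0.32.

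Among those lower in dark skin, TCONS_00003748 on an unplaced scaffold had the largest difference. It was at 14.1, 13.1 and 17.7 FPKM in dark skin and at 35.4, 19.8 and 17.8 FPKM in white skin, so the nearest libraries of both breeds were almost equal and white skin replicate 4 stood above the rest. Its log2 difference was -0.64 (standard error 0.28, adjusted p = 0.530 from limma), and -0.34 without white skin replicate 4. White skin replicate 4 was also the highest library of TCONS_00183107, at 5.67 FPKM, and of TCONS_00111061, at 20.7 FPKM, whose log2 differences were -0.60 and -0.59, and -0.39 and -0.38 without that library. TCONS_00183107 had a dark skin mean of 2.76 FPKM and was carried over the threshold by white skin only.

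TCONS_00097307 on chromosome 2 was separated more evenly, at 3.06, 2.78 and 2.66 FPKM in dark skin and at 3.76, 4.15 and 4.60 FPKM in white skin. Its log2 difference was -0.54 (standard error 0.16, adjusted p = 0.446 from limma). Its dark skin mean was 2.83 FPKM, so only white skin carried it over the threshold, and the p-value takes no account of this choice. TCONS_00060051 on chromosome 16 was at 9.23, 9.12 and 9.70 FPKM in dark skin and at 12.8, 11.1 and 12.8 FPKM in white skin. Here the log2 difference was -0.38 (standard error 0.15, adjusted p = 0.530 from limma). TCONS_00192408 and TCONS_00195261, both on chromosome 7, had log2 differences of -0.41 and -0.39, and the first was -0.26 without white skin replicate 6. TCONS_00218683, the steadiest of all, had the smallest of the 8 differences, at -0.23 (standard error 0.20, adjusted p = 0.684 from limma), or -0.14 with each library centred on the lncRNA median, and its white skin mean was 1.17 times that of dark skin. Its standard error rests largely on the variance of other transcripts of like level, which limma brings in, and is wider than its own spread.

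Summed over the abundant lincRNAs, the level was 1924 ± 103 FPKM (SD, n = 3) for dark skin and 1788 ± 186 FPKM (SD, n = 3) for white skin. This difference was within the spread between fetuses (exact permutation test, 2-sided, p = 0.3, where 0.1 is the smallest p that 3 against 3 allows). They held 70.2% ± 2.13 (SD, n = 3) of the summed lincRNA FPKM for dark skin and 68.0% ± 3.51 (SD, n = 3) for white skin (exact permutation test, p = 0.4). Both values turned on the first 2 transcripts. Without TCONS_00095183 the sum was 345 FPKM higher in dark skin (exact permutation p = 0.1), and without both TCONS_00095183 and TCONS_00100981 it was 1412 FPKM in dark skin and 1409 FPKM in white skin (exact permutation p = 1). The share was 64.4% in dark skin and 54.1% in white skin without TCONS_00095183 (exact permutation p = 0.1), and without both it was 2.10 percentage points lower in dark skin, in the opposite direction (exact permutation p = 0.7). Leaving out both was chosen after the values were seen.

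A small number of abundant lincRNAs varied widely between libraries. For 14 of the 117 the highest library was at least 3 times the lowest, or the lowest was listed at 0. After TCONS_00100981, whose highest library was 45.1 times the median library, the largest such ratios belonged to TCONS_00053729 (10.1), TCONS_00111296 (4.66), TCONS_00152598 (3.53), TCONS_00155569 (3.42) and TCONS_00042987 (2.99). TCONS_00111296 was at 5.76, 0 and 0.703 FPKM in dark skin and at 0, 3.02 and 8.67 FPKM in white skin, with no order by breed. TCONS_00100755 on chromosome 2 was at 15.2 and 8.84 FPKM in dark skin replicates 1 and 2 and at 6.68 and 8.01 FPKM in white skin replicates 4 and 6, and was listed at 0 in the other 2 libraries.

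Several of the variable lincRNAs were high in the same 3 libraries, dark skin replicate 3 and white skin replicates 4 and 5, which include both breeds. This grouping was chosen after the values were seen and was not tested. These 3 libraries were the highest for 14 of the 117 abundant lincRNAs (11.97%), against 5.48% of all lncRNA transcripts tested. They were also the highest for 5 of the 14 that varied at least 3-fold, with no such share taken over other lncRNAs of like spread. A small margin was enough to be counted. The lowest of the 3 was 1.01 times the highest of the other libraries in TCONS_00202793, and 1.03 times in TCONS_00212287, one of the steadiest transcripts. The contrast was largest for TCONS_00154307, TCONS_00152598 and TCONS_00155569, all on the minus strand of chromosome 3. TCONS_00154307 was at 0.973, 0.740 and 24.9 FPKM in dark skin and at 18.6, 26.1 and 2.98 FPKM in white skin. TCONS_00152598 was at 0.180, 0.204 and 10.6 FPKM in dark skin and at 14.5, 6.92 and 1.32 FPKM in white skin. In both, as in TCONS_00155569, dark skin replicates 1 and 2 were lowest and white skin replicate 6 was between them and the high libraries.

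TCONS_00053729 on chromosome 15 was listed at 0 in dark skin replicates 1 and 2, at 4.62 FPKM in dark skin replicate 3, and at 33.6, 10.9 and 2.02 FPKM in white skin. Its log2 difference was -4.68 (standard error 1.58, adjusted p = 0.460 from limma), a value that depends on the amount added to the zeros. With a dark skin mean of 1.54 FPKM, it was carried over the threshold by white skin only. The log2 differences of TCONS_00155569 and TCONS_00152598 were -2.46 (standard error 1.61) and -2.44 (standard error 1.44), with adjusted p of 0.617 and 0.593 from limma. Leaving out dark skin replicate 3 gave -4.51 and -4.17 respectively, and leaving out dark skin replicate 1 gave -1.14 and -1.54. Leaving out dark skin replicate 2 gave -1.60 for TCONS_00152598. In each case the values of the breeds overlapped.

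The summed markers of several cell types had the same 3 libraries highest, though not every gene of a list did. The summed FPKM of skeletal muscle markers was 7.62, 7.86 and 53.6 for dark skin and 532, 181 and 5.11 for white skin, from 2 of 18 listed genes with a matched transcript, the fast myosin light chain MYL1 and the muscle creatine kinase CKM. Basal keratinocyte markers (2 of 12 listed genes matched, KRT14 and TP63) summed to 237, 298 and 497 FPKM in dark skin and to 355, 422 and 345 FPKM in white skin. KRT14 carried this order, whereas TP63 was higher in all 3 dark skin libraries (34.5 to 41.0 FPKM) than in white skin (25.4 to 30.3 FPKM). Differentiated keratinocyte markers (4 of 12 matched) summed to 92.5, 91.6 and 203 FPKM in dark skin and to 147, 176 and 84.0 FPKM in white skin. Of these, DSC1 and TGM3 had the same 3 libraries highest, whereas KRT2 was higher in all dark skin libraries and LY6D in all white skin libraries. LEF1, a transcription factor of the Wnt pathway and the only matched hair follicle marker of 12, was at or below 0.00254 FPKM in 3 libraries and at 2.24, 2.51 and 5.86 FPKM in the 3 high ones. The Schwann cell sum (4 of 7 matched) ranged from 50.2 to 74.3 FPKM in dark skin and from 71.4 to 82.9 FPKM in white skin, and of its genes only ERBB3 had the same 3 libraries highest. The part of cell content in the levels of these lincRNAs was not tested.

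**Figure D4:**
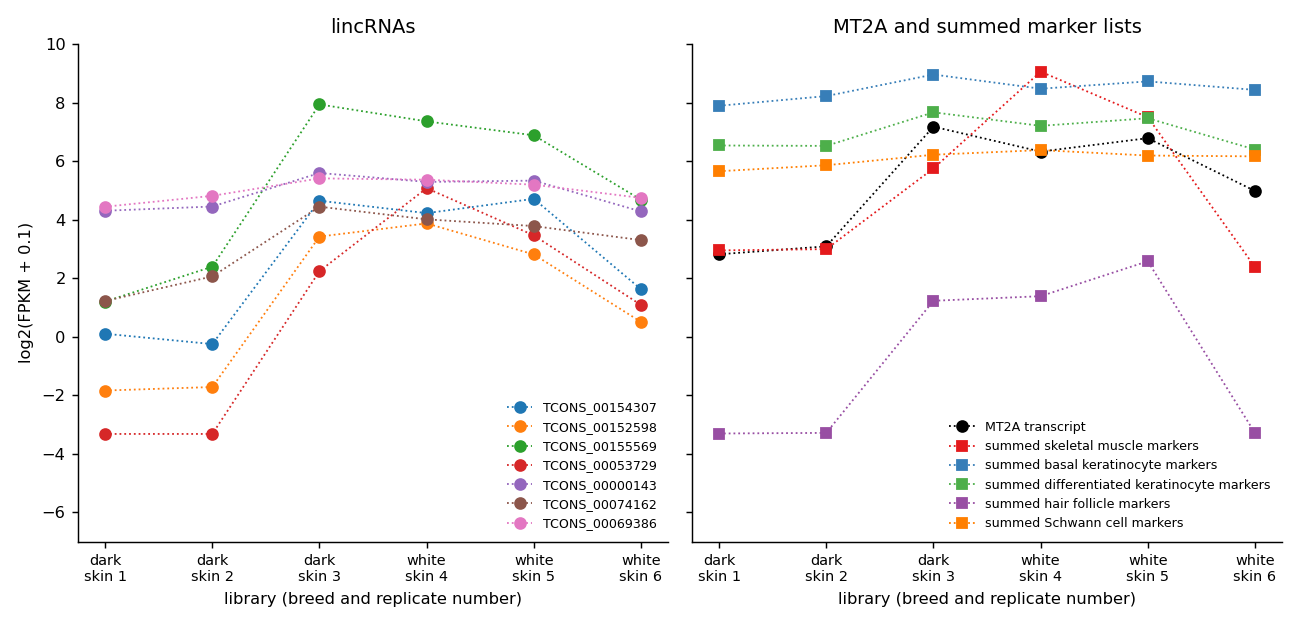
Level on the log2(FPKM + 0.1) scale (y axis) in each library (x axis) of the 7 abundant lincRNAs with the largest contrast (left) and of MT2A and the summed marker lists with the same 3 highest libraries (right). Dotted lines only join the points of one item. Dark skin replicate 3 and white skin replicates 4 and 5 are the highest of the 6 for every item, and TCONS_00155569 reaches 245 FPKM there.

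Some other marker sums were separated by breed. Melanocyte markers (6 of 13 matched) summed to between 66.7 and 88.9 FPKM in dark skin and between 43.7 and 60.5 FPKM in white skin. Of these 6 genes, DCT and SLC45A2 were higher in dark skin without overlap, whereas EDNRB, MITF, MLANA and OCA2 overlapped, and MLANA was highest in white skin replicate 6. Erythroid (5 of 9 matched), endothelial (5 of 9) and adipocyte markers (2 of 7) had higher sums in all 3 white skin libraries, with sums of 2.09 to 4.16 against 7.34 to 15.6 FPKM, 63.7 to 78.4 against 87.4 to 121 FPKM, and 4.51 to 12.2 against 15.2 to 79.0 FPKM respectively. Single genes were separated in this direction for 2 of 5 erythroid, 3 of 5 endothelial and 1 of 2 adipocyte markers, and ALAS2 made up most of the erythroid sum. The dermal fibroblast sum (8 of 12 matched) was 3776 to 4685 FPKM in dark skin and 4364 to 4867 FPKM in white skin, and that of immune markers (7 of 10) was 31.3 to 40.5 and 37.6 to 52.1 FPKM. Within these overlapping sums, POSTN and MFAP5 of the fibroblast list and C1QB of the immune list were lower in all dark skin libraries, as was S100B of the Schwann cell list, and COL1A2 and COL3A1 added nothing to the fibroblast sum. Their part in the 24 lincRNAs without overlap between the breeds was not tested.

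Some abundant lincRNAs had the transcript number next to that of another lincRNA on the same chromosome and strand. There were 8 such pairs, and in 4 of them both transcripts were abundant. TCONS_00042987 and TCONS_00042988 on chromosome 13 were the clearest case. TCONS_00042987 was at 12.5, 11.002 and 8.36 FPKM in dark skin replicates 2 and 3 and white skin replicate 5, and at or below 0.00570 FPKM in the other 3 libraries. Its CV was 130%, that of TCONS_00042988 was 16.7%, and that of their sum was 9.89%, with the sum between 44.3 and 62.4 FPKM.

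The sum was also steadier than either transcript for TCONS_00195633 and TCONS_00195634 on chromosome 7. TCONS_00195633 was at 1.70, 4.23 and 4.24 FPKM in dark skin and at 4.21, 5.01 and 3.49 FPKM in white skin. TCONS_00195634 was at 4.66, 3.004 and 0.687 FPKM in dark skin and at 3.97, 2.15 and 5.52 FPKM in white skin. TCONS_00195633 was lowest in dark skin replicate 1, where TCONS_00195634 was above its median, and TCONS_00195634 was lowest in dark skin replicate 3, where TCONS_00195633 was above its median. The CV went from 30.5% and 57.6% for the single transcripts to 15.2% for the sum, which still ran from 4.92 to 9.01 FPKM. For TCONS_00047975 with TCONS_00047976 the CV was 12.6% and 12.4%, and 8.23% for the sum. Summing transcripts of like level lowers the CV even where they are unrelated, and this applies to both of these pairs. For TCONS_00190243 with TCONS_00190244 the sum, at 19.7%, was steadier than the first transcript (32.9%) but not the second (17.4%). Whether the transcripts of a pair overlap was not tested. In all 8 pairs, the summed values overlapped between the breeds.

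**Figure D5:**
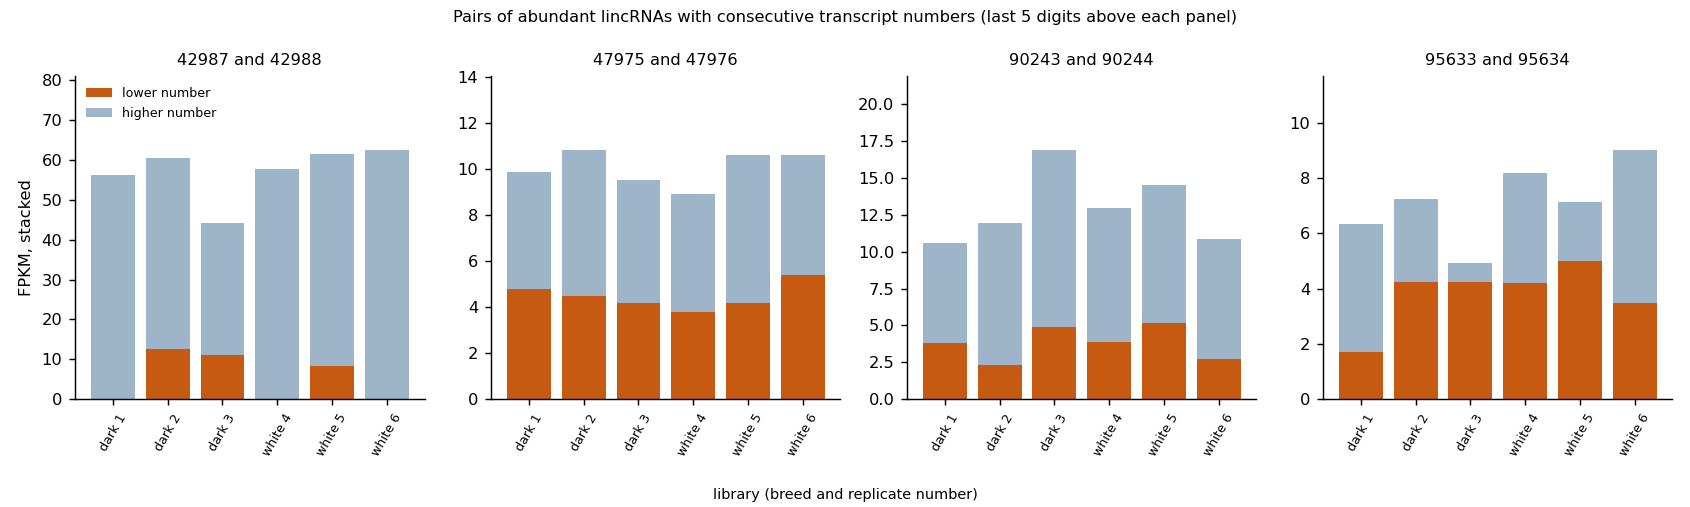
FPKM (y axis, stacked) in each library (x axis) of the 4 pairs in which both lincRNAs were abundant and had consecutive transcript numbers. Orange is the transcript with the lower number and grey-blue that with the higher number, and the full height is their sum. In the first panel the orange part is present in 3 libraries while the sum stays between 44.3 and 62.4 FPKM.

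Protein-coding genes within 10 kb were looked up for the abundant lincRNAs. The study lists neighbours by lncRNA locus, and the loci were matched to transcripts by their co-expression in these libraries, so each pairing is an inference and a likeness between a lincRNA and its neighbour is not an independent result. The numbering of loci and transcripts also had to run in the same order, which removed 2 of 341 matches and favours agreement of chromosomes. Over all lncRNAs matched in this way, 246 of 246 neighbouring genes with a known chromosome lay on the chromosome of the matched lncRNA. Of the 117 abundant lincRNAs, 24 were matched and 11 of these had a neighbour, with 14 named genes in all. Among these were C10H15orf52 (TCONS_00019282), DPP7, MAN1B1 and UAP1L1 (TCONS_00025680), the p53-induced gene TP53INP1 (TCONS_00048463), YPEL1 (TCONS_00069353), the metallothionein gene MT2A (TCONS_00074162), the cell polarity gene PARD3B (TCONS_00102146), NEURL1B (TCONS_00105373), GLRX5 of iron-sulfur cluster assembly (TCONS_00110803), and the chloride channel ANO1 with the death receptor adaptor FADD (TCONS_00147348). A wider matching, added after the data were seen, gave 13 further abundant lincRNAs with a neighbour on the same chromosome, among them GATA3, a transcription factor of the epidermis and hair follicle, beside TCONS_00039590, and ANPEP, a membrane aminopeptidase, beside TCONS_00110114.

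Of the 14 neighbours, 2 had a transcript with a symbol in the mRNA table. MT2A, whose product binds zinc and copper and is induced by metals and glucocorticoids, was at 6.94, 8.40 and 144 FPKM in dark skin and at 80.0, 110 and 31.4 FPKM in white skin. Its lincRNA TCONS_00074162 on chromosome 18 was at 2.23, 4.07 and 21.6 FPKM in dark skin and at 15.999, 13.6 and 9.74 FPKM in white skin. Both were highest in dark skin replicate 3 and white skin replicates 4 and 5 and lowest in dark skin replicates 1 and 2, and the breeds overlapped. The log2 difference of MT2A was -1.67 (standard error 1.17, adjusted p = 0.717 from limma), and that of TCONS_00074162 was -1.12 (standard error 0.72, adjusted p = 0.617 from limma). Without dark skin replicate 3 these were -3.08 and -2.06, and without dark skin replicate 1 they were -0.90 and -0.45. Without dark skin replicate 2 that of MT2A was -1.03.

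TP53INP1 was at 7.50, 8.96 and 6.10 FPKM in dark skin and at 6.05, 6.55 and 5.44 FPKM in white skin. Its lincRNA TCONS_00048463, the next in abundance after the first 10, was level at 27.7, 25.8 and 28.4 FPKM in dark skin and at 27.1, 30.7 and 25.6 FPKM in white skin. Neither TP53INP1 nor MT2A passed the limma test over mRNA transcripts, in which 2 of 23090 (0.00866%) had an adjusted p under 0.05. The lincRNAs beside the other named neighbours were mostly steady. TCONS_00019282, TCONS_00025680, TCONS_00102146, TCONS_00105373, TCONS_00110803 and TCONS_00147348 had a CV between 6.32% and 13.3%, and of these only TCONS_00025680 was separated by breed, at 6.34, 5.77 and 6.03 FPKM in dark skin and at 4.72, 4.89 and 5.48 FPKM in white skin. TCONS_00069353 was at 7.13, 7.97 and 4.45 FPKM in dark skin and at 4.26, 3.41 and 5.26 FPKM in white skin, with overlap between the breeds.

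At the same threshold there were 21 abundant intronic lncRNAs of 218 and 17 abundant anti-sense lncRNAs of 119. The highest mean was 47.9 FPKM among the intronic (TCONS_00084933) and 15.9 FPKM among the anti-sense lncRNAs (TCONS_00173983), against 263 FPKM among the lincRNAs. Their sums were between 120 and 181 FPKM and between 99.0 and 141 FPKM in a library, against at least 1615 FPKM for the abundant lincRNAs. The breeds did not overlap for 28.6% of the abundant intronic and 11.8% of the abundant anti-sense lncRNAs, with 20.5% for the lincRNAs between them. The median CV within a breed was 18.7%, 16.1% and 18.0% respectively. Differences between these classes were not tested.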

How the data were processed

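RNA was taken from the skin of 6 goat fetuses, depleted of ribosomal RNA and made into strand-specific libraries, 3 for each breed. Per the labels and the methods of the study, the authors aligned reads to the goat genome with TopHat (v2.0.9, Bowtie 2.0.6), assembled transcripts with Scripture and Cufflinks (v2.1.1), kept spliced transcripts without coding potential as lncRNAs, and deposited FPKM values from Cuffdiff (version 2.1.1 in the methods, where the labels also list 2.2.2). How Cuffdiff scaled the libraries is not given in the sources used here. The deposited mean FPKM matches the mean of the 6 values up to rounding.

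FPKM are not counts, so no count test or counting interval could be used. The breeds were compared on log2(FPKM + 0.1) with lmFit and trended eBayes of limma 3.58.1 (R 4.3.3) for transcripts with a mean of at least 0.1 FPKM, 2-sided with Benjamini-Hochberg adjustment, after the test had been tried on simulated data. On this scale, changes of transcripts at low levels are understated. Sums and shares were compared by an exact permutation test over libraries (20 arrangements). Python 3.11.15 with numpy 2.4.6 and pandas 2.3.3 was used for all else.

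The transcripts, gene lists and tests were chosen with earlier results of these data known. The named lincRNAs were the 10 most abundant, up to 8 with the largest difference in each direction among those without overlap, any past the threshold, the 6 with the largest ratio of highest to median library, the 5 steadiest, those at the threshold and those with a named neighbour. TCONS_00100755, the consecutive pairs, the 3-library grouping and the wider matching were chosen after values were seen. Gene symbols matched 9497 of 27947 mRNA transcripts (34.0%) through a RefSeq table of the assembly ARS1.2, used for names and chromosomes only. Loci were matched to the transcript with an absolute correlation of at least 0.95 with at least 75% of the 8 or more genes listed for the locus and a lead of 3 genes, and matches whose locus and transcript numbers were more than 5% apart in rank were dropped. The wider rule used 5 genes, 60%, a lead of 1 gene and 3% in rank. Genes without a match were not analysed here. Some neighbouring genes are not reported here. Alternatives were other pseudocounts, filters and scalings, no trend, both tables in 1 fit, and each library left out.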

Additional observations from a re-analysis of the deposited data

How the results depend on the processing

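The number of abundant lincRNAs with an adjusted p under 0.05 from limma was 0 with a pseudocount of 0.01 or 1, no filter, a mean of at least 1 FPKM, centring on the lncRNA or mRNA median, quantile normalization, no trend and both tables in 1 fit, with 4 (3.42%, against 8.41% of all lncRNA transcripts, without trend) to 22 (18.8% against 10.4%, centred on the lncRNA median) at an unadjusted p under 0.05. With 1 library left out it was 0 to 1. Over all lncRNA transcripts it was 2 with centring on the lncRNA median, 2 with quantile normalization, 2 without trend, and 0 to 1 with 1 library left out. The number without overlap between the breeds was 31 to 47 with 1 library left out (26.5% to 40.2%, against 22.6% to 30.3% of all lncRNA transcripts), where fewer samples make overlap less frequent by construction. The share of the summed lincRNA FPKM turned to -2.10 percentage points without the 2 most abundant transcripts. With 1 library left out the sum was 50.3 to 235 FPKM and the share 0.520 to 4.02 percentage points higher in dark skin. No paired analysis was possible because the fetuses of each breed came from different ewes and nothing pairs them.

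Among the lincRNAs taken by the naming rule, 10 had log2 differences that turned sign under some setting, and none of these 10 had passed the test (adjusted p from limma of at least 0.804 in each). Centring on the lncRNA median gave 0.020 for TCONS_00041573, 0.071 for TCONS_00048463, 0.076 for TCONS_00102146 and 0.074 for TCONS_00212287. Centring on the mRNA median gave 0.025 for TCONS_00048463, 0.030 for TCONS_00102146 and 0.028 for TCONS_00212287, quantile normalization gave 0.090 for TCONS_00048463, and a pseudocount of 1 gave -0.016 for TCONS_00000706. With 1 library left out, the log2 difference ran from -0.59 to 0.053 for TCONS_00000143, from -0.15 to 0.38 for TCONS_00000187, from -0.33 to 0.40 for TCONS_00000706, from -0.11 to 0.17 for TCONS_00025228, from -0.077 to 0.055 for TCONS_00048463, from -0.47 to 0.012 for TCONS_00069386, from -0.085 to 0.073 for TCONS_00102146, from -2.75 to 0.63 for TCONS_00111296 and from -0.046 to 0.0086 for TCONS_00212287. The cause was not tested. Since no counts were used, the depth that limits each value is unknown.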

Other observations

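The mRNA table was searched, after the values had been seen, for transcripts that shared the pattern of TCONS_00100981, high in dark skin replicates 1 and 2 and low elsewhere. For TCONS_00100981 the lower of these 2 libraries was 28.3 times the highest of the other 4. Among 16776 mRNA transcripts with a mean of at least 1 FPKM, 13 had a ratio of at least 2, and 3 of these carried a symbol. No other abundant lincRNA had a ratio of at least 2. A transcript of FN1, which encodes the matrix protein fibronectin, was at 15.8, 18.9 and 2.65 FPKM in dark skin and was listed at 0 in all 3 white skin libraries. As for COL1A2 and COL3A1, a 0 can be a failed estimate, so the white skin level of FN1 and its place in this search are uncertain. FOS, an immediate-early transcription factor, was at 64.3, 42.1 and 13.1 FPKM in dark skin and at 10.8, 6.25 and 5.86 FPKM in white skin. CEBPZ was at 40.9, 19.8 and 5.88 FPKM in dark skin and at 4.09, 5.90 and 5.44 FPKM in white skin. Dark skin replicates 1 and 2 stood above the other libraries in each of these 3 because the search required it, and dark skin replicate 3 was nearer to white skin. This likeness of pattern over 6 libraries was not tested, and it says nothing of a shared function.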
